A study of Homo sapiens with 6 samples.

Results

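The olfactory receptor genes were examined for peaks of plasminogen activator inhibitor-1 (PAI-1) in chromatin immunoprecipitation followed by sequencing (ChIP-seq) of RT112 and UM-UC-3, established human lines from bladder cancer. PAI-1 is best known as a secreted serine protease inhibitor, and the experiment asked whether the nuclear protein contacts DNA. Members were the protein-coding genes of GENCODE release 44 on GRCh37 whose symbol has the form of an olfactory receptor name (OR, family number, subfamily letters, member number). They lie on chromosomes 1 to 22, and chromosome 6 from 25.7 to 33.5 Mb was left out. The rule gave 382 members among 18954 protein-coding genes. Each cell line had 2 ChIP libraries, labelled as biological replicates and made with an antibody to endogenous PAI-1, and the labels give no treatment. There was also 1 input library per line, not analysed here. Each line is a single established culture, so a difference between lines is a difference between these 2 cultures.

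Olfactory receptors are G protein-coupled receptors that detect odorants in the sensory neurons of the nose. Each neuron expresses a single receptor gene from a single allele, and the other receptor genes are kept silent in compact heterochromatin. The genes stand in tandem clusters that arose by duplication. The class I (fish-like) receptors of families 51, 52 and 56 share one cluster on chromosome 11, and the class II receptors are spread over many chromosomes. A typical gene has its whole coding sequence in a single exon, and outside the nose most receptor genes are silent.

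The members had the build of this family. They lay on 17 chromosomes, with 171 on chromosome 11 and 63 on chromosome 1. There were 55 class I and 327 class II genes, and 370 had a single coding exon. Median gene length was 1641 bp, against 28.2 kb over all genes tested, and ranged from 912 bp to 202.2 kb (OR51B5). Median GC content of the gene with 3 kb on both sides was 37.7%, against 45.0% over all genes. A CpG island, found from the sequence, lay at the start site (TSS) of 17 members, or 4.45%, against 74.2% of all genes. For 39 members another member matched at least 97% of the coding bases over at least 80% of the coding length. Reads from such near copies are hard to place, so their peaks are uncertain.

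The deposited lists held 60227 to 114094 distinct peaks per library, fewest in RT112 replicate 2. A peak's score was read as −log10 of its p-value or q-value from the peak caller, and the sources used here do not say which. The lists carry no read counts, so depth is unknown and scores are not on 1 scale across libraries.

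Peaks at members were called at the same bases in all 4 libraries, in RT112 alone or in UM-UC-3 alone. Examples of each kind are shown because they give the bases that the immunoprecipitation returned at these loci. All are the forward strand of GRCh37 (hg19), limited to the stretch shared by the named libraries and to its central part where it was long. The first kind lay outside coding sequence. Downstream of OR6B3, the printed stretch held CCGTGG 7 times as part of a tandem repeat. In an intron of OR1B1, AAAGGA occurred 5 times. Capitals mark these words.
OR6B3 (chr2:240982221-240982520): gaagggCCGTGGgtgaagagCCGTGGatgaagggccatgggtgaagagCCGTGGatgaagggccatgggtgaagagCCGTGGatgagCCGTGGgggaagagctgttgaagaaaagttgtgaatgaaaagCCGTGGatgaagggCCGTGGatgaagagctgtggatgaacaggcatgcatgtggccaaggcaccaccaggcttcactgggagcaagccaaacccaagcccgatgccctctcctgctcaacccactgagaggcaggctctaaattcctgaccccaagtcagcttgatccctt
OR1B1 (chr9:125404333-125404588): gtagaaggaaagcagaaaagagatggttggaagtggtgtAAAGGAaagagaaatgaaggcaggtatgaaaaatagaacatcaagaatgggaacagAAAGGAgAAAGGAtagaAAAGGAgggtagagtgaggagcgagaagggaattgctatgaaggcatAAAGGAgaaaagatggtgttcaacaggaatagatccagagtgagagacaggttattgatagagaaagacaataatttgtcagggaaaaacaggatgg

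In RT112 both replicates had the peaks at OR4D1 and OR5L2, and neither UM-UC-3 library had a peak at those positions. The OR4D1 peak lay in an intron, 245 to 645 bp after the TSS, and capitals mark TCTTCC, which occurred 4 times. The OR5L2 peak lay inside the single coding exon, and there capitals mark coding bases.
OR4D1 (chr17:56226041-56226340): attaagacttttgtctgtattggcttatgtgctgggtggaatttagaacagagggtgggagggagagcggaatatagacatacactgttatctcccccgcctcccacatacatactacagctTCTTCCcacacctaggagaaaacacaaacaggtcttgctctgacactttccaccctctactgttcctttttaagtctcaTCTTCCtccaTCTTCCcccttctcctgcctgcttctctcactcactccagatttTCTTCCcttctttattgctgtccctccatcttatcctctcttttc
OR5L2 (chr11:55595105-55595389): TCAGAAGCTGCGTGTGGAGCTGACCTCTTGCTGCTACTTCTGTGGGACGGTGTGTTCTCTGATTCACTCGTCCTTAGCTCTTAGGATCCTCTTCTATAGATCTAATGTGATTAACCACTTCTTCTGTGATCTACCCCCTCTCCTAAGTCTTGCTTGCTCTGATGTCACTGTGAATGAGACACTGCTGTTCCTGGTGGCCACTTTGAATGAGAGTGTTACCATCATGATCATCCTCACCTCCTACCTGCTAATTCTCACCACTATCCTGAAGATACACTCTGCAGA

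In UM-UC-3 both replicates had the peaks at OR14A2, OR6C6, OR11H6 and OR11H7, and neither RT112 library had a peak at those positions. The OR14A2 peak was intronic, and capitals mark its longest run of T. In the other sequences of this set capitals mark coding bases. OR6C6 is on the reverse strand, so its coding bases read as the complement, and the OR11H7 stretch, shown for its position, crosses from upstream sequence into the start of the coding exon.
OR14A2 (chr1:247895294-247895593): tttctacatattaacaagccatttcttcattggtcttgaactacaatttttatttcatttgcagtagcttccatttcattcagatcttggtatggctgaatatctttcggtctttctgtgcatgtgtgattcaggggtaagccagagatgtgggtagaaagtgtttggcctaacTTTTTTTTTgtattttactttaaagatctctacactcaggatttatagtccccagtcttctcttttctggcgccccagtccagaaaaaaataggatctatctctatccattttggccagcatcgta
OR6C6 (chr12:55688055-55688326): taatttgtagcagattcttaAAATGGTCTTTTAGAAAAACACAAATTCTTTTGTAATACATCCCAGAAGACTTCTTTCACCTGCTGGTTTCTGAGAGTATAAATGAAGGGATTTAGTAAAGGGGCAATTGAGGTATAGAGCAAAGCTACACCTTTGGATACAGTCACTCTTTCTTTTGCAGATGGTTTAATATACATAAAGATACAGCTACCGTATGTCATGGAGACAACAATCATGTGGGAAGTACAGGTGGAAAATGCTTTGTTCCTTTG
OR11H6 (chr14:20691928-20692183): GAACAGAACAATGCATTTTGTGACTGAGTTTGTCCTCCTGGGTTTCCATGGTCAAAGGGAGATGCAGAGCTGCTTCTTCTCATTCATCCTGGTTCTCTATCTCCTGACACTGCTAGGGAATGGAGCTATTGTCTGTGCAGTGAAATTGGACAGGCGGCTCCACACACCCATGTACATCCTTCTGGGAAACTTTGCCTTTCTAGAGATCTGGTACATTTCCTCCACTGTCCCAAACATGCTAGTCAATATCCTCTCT
OR11H7 (chr14:20697312-20697611): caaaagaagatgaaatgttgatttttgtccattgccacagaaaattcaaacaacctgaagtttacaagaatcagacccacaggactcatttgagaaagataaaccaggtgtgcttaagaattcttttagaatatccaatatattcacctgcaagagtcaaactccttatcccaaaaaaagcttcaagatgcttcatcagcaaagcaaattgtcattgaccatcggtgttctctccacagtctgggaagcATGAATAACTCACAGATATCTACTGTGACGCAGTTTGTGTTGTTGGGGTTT

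A member was counted as having a peak when at least 1 bp of a peak lay in the gene or within 3 kb of it. By this count 29.3% of the 382 members had a peak in RT112 replicate 1 and 16.8% (64 genes) in RT112 replicate 2. In UM-UC-3 there were 155 (40.6%) in replicate 1 and 156 (40.8%) in replicate 2. The corresponding background over all 18954 genes was 54.3% and 44.9% in the RT112 replicates and 59.4% and 60.2% in the UM-UC-3 replicates. Olfactory receptor genes thus had a peak less often than the average protein-coding gene in each of the 4 libraries. They are also far shorter, so genes of their own length were taken next.

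Against these the order turned. Shares of the other protein-coding genes were weighted to the length classes of the members (20 classes). The length-matched share was 17.4% and 13.1% in the RT112 replicates and 23.04% and 24.4% in the UM-UC-3 replicates. The members were above it by 11.9 and 3.65 percentage points in RT112 (mean 7.80 ± 5.86, SD, n = 2). In UM-UC-3 they were above it by 17.5 and 16.4 points (mean 16.98 ± 0.79, SD, n = 2). The excess in UM-UC-3 was large beside its replicate spread, and in RT112 it came mainly from replicate 1.

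The excess was smaller once base composition was matched as well. Where other genes were matched on length and GC content together, their share was 22.2% and 15.2% in RT112, against 31.5% and 32.9% in UM-UC-3. The members then exceeded it by 7.16 and 1.54 points in RT112 and by 9.03 and 7.95 points in UM-UC-3. Where only other genes without a CpG island were used, matched on length, the excess was 6.21 and −0.41 points in RT112, against 11.5 and 10.2 points in UM-UC-3. RT112 replicate 2 therefore showed no excess over short genes without a CpG island, and both UM-UC-3 libraries did. No test was made of these gaps, since genes are not replicates.

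**Figure D1:**
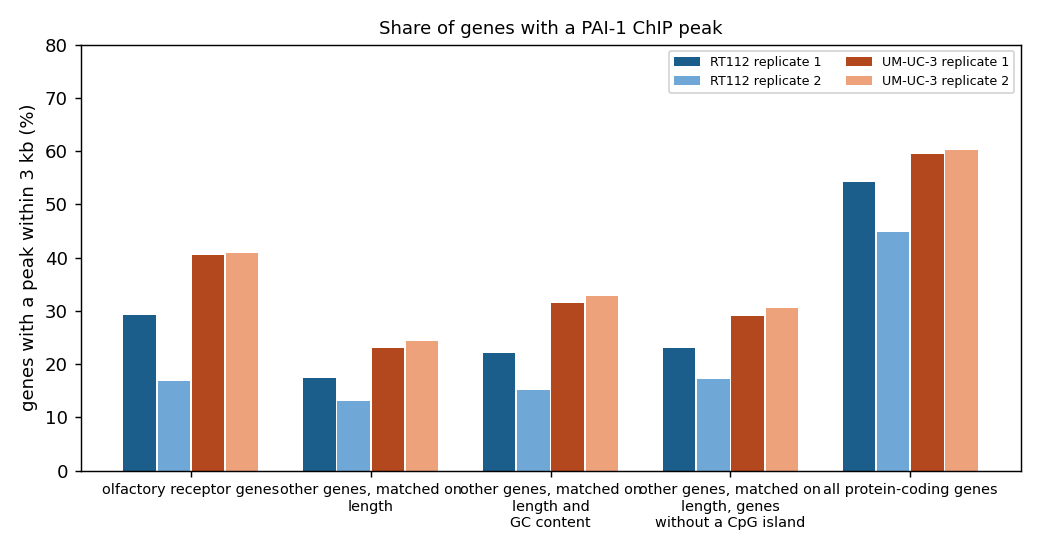
Share of genes with a PAI-1 peak in the gene or within 3 kb (%, vertical axis) in each library, 1 bar per library, for olfactory receptor genes, for other genes matched to them in 3 ways, and for all protein-coding genes. In UM-UC-3 the receptor bars stand at 40.6% and 40.8%, above every matched set and below all genes at 59.4% and 60.2%.

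On average 23.04% ± 8.89 of members had a peak in RT112, against 40.7% ± 0.19 in UM-UC-3 (SD, n = 2 each). The difference was 17.7 points. Both UM-UC-3 libraries were above both RT112 libraries. The exact permutation test over libraries gave p = 0.333 (two-sided), which is the smallest p that 2 against 2 can give. Over all genes the same difference was 10.2 points. RT112 replicate 2 also had the fewest peaks, and with the same number of top-scoring peaks (60227) taken from every library, a choice made after seeing the data, the difference at members was 12.04 points.

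Few members had a peak in both lines in every replicate. Of the 382, 146 had no peak in any library, 72 had one in 1 library, 100 in 2, 41 in 3 and 23 in all 4. No peak in any library was thus the state of 38.2% of members, against 25.7% of all genes, and a peak in all 4 that of 6.02%, against 33.4% of all genes. Both RT112 replicates had a peak at 48 members (12.6%, against 40.7% of all genes), and both UM-UC-3 replicates at 130 (34.0%, against 54.5%). The pattern of both UM-UC-3 replicates and no RT112 library was found at 75 members (19.6%, against 10.6% of all genes). The opposite pattern, both RT112 replicates and no UM-UC-3 library, was found at 16 members (4.19%, against 4.32% of all genes). None of these patterns was matched on gene length, and members are far shorter than other genes (median 1641 bp, against 28.2 kb over all genes). How far length accounts for these gaps was not tested.

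Peaks at members numbered 148 and 81 in the RT112 replicates and 233 and 236 in the UM-UC-3 replicates. In RT112 their median score equalled that of all peaks, at 3.801 in replicate 1 and 4.09 in replicate 2. In UM-UC-3 their median score was 5.19 and 5.16, above the 3.88 and 3.85 of all peaks. Of member peaks, 35.8% and 65.4% in RT112, against 77.3% and 76.3% in UM-UC-3, overlapped a peak of the other replicate. The same figures over all peaks on the chromosomes tested were 38.2%, 61.2%, 74.8% and 71.8%. Member peaks thus recurred between replicates about as often as other peaks did. A peak of the other line was overlapped by 10.1% and 13.6% of the RT112 member peaks, against 7.09% and 7.81% of all peaks. In UM-UC-3 it was 6.44% and 7.20% of member peaks, against 5.97% and 5.89% of all peaks.

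By receptor class, the gap between the lines was wider at class I. A peak was found at 10 and 4 of the 55 class I genes in the RT112 replicates (18.2% and 7.27%) and at 26 and 27 in the UM-UC-3 replicates (47.3% and 49.1%). Against length-matched genes, class I differed by 1.19 and −5.84 points in the RT112 replicates and by 24.5 and 24.9 points in the UM-UC-3 replicates. The 327 class II genes had shares of 31.2% and 18.3% in RT112 and 39.4% in each UM-UC-3 replicate. The difference between the lines was 35.5 points in class I and 14.7 points in class II. Whether these 2 differences differ was not tested.

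Within class I, family 52 had 6 and 1 of 27 genes with a peak in the RT112 replicates, and 16 and 15 in UM-UC-3. Family 51 had 3 in each RT112 replicate and 9 and 11 in UM-UC-3, of 22 genes. Family 56 hardly differed, with 1 and 0 of 6 genes in RT112 and 1 in each UM-UC-3 replicate. Within class II the families ran in different ways. Family 13 had no gene with a peak in either RT112 library and 3 and 4 of 12 in UM-UC-3. Family 6 had 12 and 8 of 30 in RT112, against 17 and 16 in UM-UC-3. Family 5 hardly separated the lines, with 13 and 9 of 49 in RT112, against 15 and 11 in UM-UC-3. Families 9 and 14, with 8 and 5 genes, had as many or more in RT112 as in UM-UC-3.

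**Figure D2:**
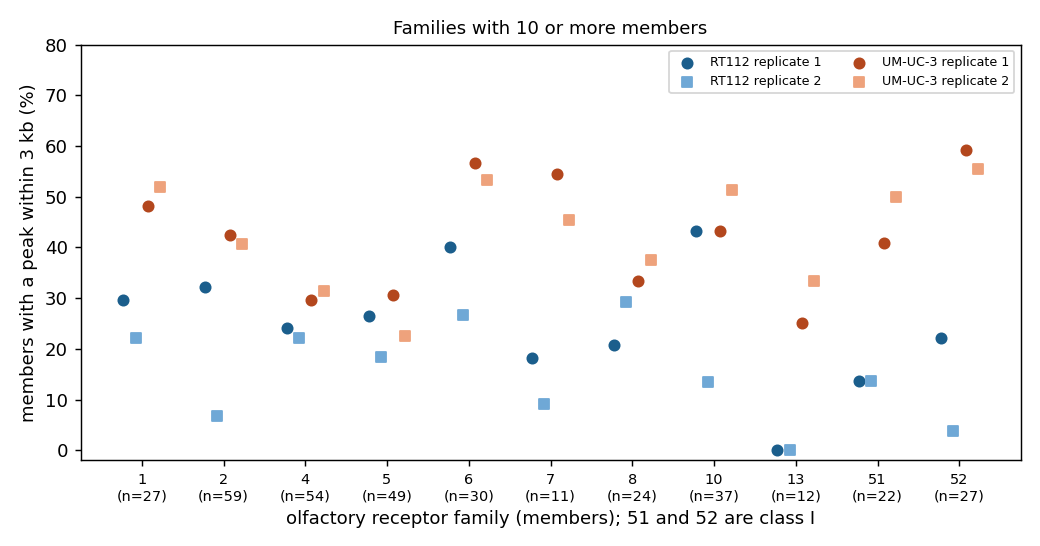
Members with a PAI-1 peak (%, vertical axis) in each receptor family of 10 or more genes (horizontal axis), with 1 point per library. In families 51 and 52 both UM-UC-3 points (40.9% to 59.3%) lie above both RT112 points (3.70% to 22.2%), while in family 5 the points overlap.

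Of the 23 genes with a peak in all 4 libraries, 5 had bases under a peak in every library, OR14I1, OR4X1, OR9K2, OR6B3 and OR1B1. At the other genes no base was under a peak in all 4. The same count was not made over all genes. Of all peaks on the chromosomes tested, only 5.89% to 7.81% overlapped a peak of the other line, so shared positions were scarce in general. OR4D1 had the highest score of any member in RT112, 37.02 and 29.5, from the intronic peak printed above. Its UM-UC-3 scores were 4.51 and 5.67, from a separate peak 2.44 kb before the gene. OR3A2, a long gene of the chromosome 17 cluster, scored 27.0 and 17.1 in RT112 from a peak downstream of the gene, and 7.498 and 10.7 in UM-UC-3 from intronic peaks. OR6B3 held the highest scores of any member in UM-UC-3, 56.6 and 56.4, and scored 13.2 and 4.09 in RT112 at the same tandem repeat.

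OR14A2 scored 46.2 and 50.4 in UM-UC-3 and 8.75 and 5.29 in RT112, at different intronic positions. At the intronic position of OR1B1 printed above the scores were 14.6 and 6.56 in RT112, against 5.19 and 5.16 in UM-UC-3. The other members with a peak in all 4 libraries were OR9K2, OR14I1, OR51B5, OR4X1, OR5AS1, OR9G1, OR1S2, OR2AT4, OR8D4, OR10A7, OR10G4, OR6C6, OR6C75, OR4N2, OR4M1, OR4K17, OR4M2 and OR2F2. OR4N2 and OR4M1 overlap on chromosome 14 and shared the same RT112 peak (11.6 and 9.32), so they are not separate observations. OR4M1 and OR4M2 are also near copies, which makes their peaks uncertain. OR51B5 spans 202.2 kb across its neighbours, and its best UM-UC-3 peak (14.6 in each replicate) was the peak in the coding exon of OR51Q1.

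High scores in both replicates of a single line were seen at other genes. OR5L2 scored 21.0 and 15.5 in RT112, and the nearest UM-UC-3 peak was 4.03 kb away in each replicate. OR11H6 scored 18.2 and 12.9 in UM-UC-3, with the nearest RT112 peaks 29.2 and 23.7 kb away. OR1A1, which responds to citronellal, scored 14.6 and 11.2 in UM-UC-3, and the nearest RT112 peaks lay 4.21 and 22.8 kb away. OR5B2 (11.3 and 19.9) and OR1L6 (16.4 and 12.9) also ranked high in UM-UC-3, and each had a weaker peak in 1 RT112 replicate (3.801 for OR5B2 and 4.09 for OR1L6).

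Receptors known for a ligand or for expression outside the nose did not share a pattern. OR51E1 and OR51E2, class I receptors for short-chain fatty acids and related ligands that are also expressed in the prostate, are neighbours on chromosome 11. OR51E1 (chr11:4664650-4676718) had a peak in its coding exon in RT112 replicate 1 (score 6.15). Both UM-UC-3 replicates had a peak within 500 bp of its start site (2.64 and 3.63) and another in an exon (5.19 and 2.63). OR51E2 (chr11:4701401-4719084) had no peak in any library. The nearest peaks to it were 27.4 and 5.61 kb away in RT112 and 7.23 kb away in each UM-UC-3 replicate. OR10H1, described as expressed in human bladder, had a peak in UM-UC-3 alone (11.3 and 3.85), and because it has a near copy this is uncertain. OR1D2, the bourgeonal receptor of sperm, also had one in UM-UC-3 alone (6.17 and 5.67).

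OR5A1, the receptor for beta-ionone, had a peak within 500 bp of its start site in both UM-UC-3 replicates (3.88 and 8.05) and none in RT112. OR5AN1, a musk receptor, had a peak in RT112 replicate 1 alone (6.15). OR7D4, which detects androstenone, had one in UM-UC-3 replicate 1 alone (2.64). OR2AT4, expressed in keratinocytes, and OR10G4, which responds to vanillin-like odorants, had low-scoring peaks in all 4 libraries, from 2.64 to 5.20. OR6A2, an aldehyde receptor, scored 9.65 and 8.05 in UM-UC-3 and 4.94 in RT112 replicate 1.

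The gene lists published with the study hold 5 members, OR2M4, OR51E2, OR2AG2, OR1I1 and OR1B1. The share of all genes on them was not counted, so 5 of 382 has no background. The paper describes its gene lists as combining adjacency to PAI-1 binding with RNA sequencing after PAI-1 depletion. It gives no distance for adjacency. Those lists were chosen on samples of the same study and are not independent evidence. By the 3-kb rule used here, which need not match the study's, OR1B1 had a peak in all 4 libraries and OR51E2 in none. OR2M4, OR2AG2 and OR1I1 each had a peak in RT112 replicate 1 and in both UM-UC-3 replicates, and none in RT112 replicate 2. At OR1I1 the UM-UC-3 scores were 9.65 and 11.2, from a peak upstream of the gene.

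At start sites the lines differed in the ratio to the flanks as well as in level. In the 365 members without a CpG island, peaks covered 0.827% and 0.379% of bases within 500 bp of the TSS in the RT112 replicates. The flanks at 2 to 3 kb had 1.04% and 0.499%. The ratio of start site to flank was 0.792 and 0.760 in RT112 (0.776 ± 0.0225, SD, n = 2). In UM-UC-3, coverage was 1.97% and 2.02% at the TSS and 1.57% and 1.46% in the flanks, a ratio of 1.25 and 1.38 (1.32 ± 0.0949, SD, n = 2). Coverage at receptor start sites was thus below that of these flanks in RT112 and above it in UM-UC-3. Steps farther from the TSS reached the same level in UM-UC-3, however, and with flanks of 2 to 5 kb the ratio over all members was 1.105. The 500-bp steps before and after the TSS held 0.605% and 1.05% in RT112 replicate 1 and 0.196% and 0.561% in replicate 2. Steps farther out lay on both sides of the step after the TSS in both RT112 replicates, so no clear dip was seen there.

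Other genes had a ratio below 1 in all 4 libraries. Start sites of the 4527 other genes without a CpG island had ratios of 0.857 and 0.739 in RT112, against 0.739 and 0.715 in UM-UC-3. Those of the 14045 other genes with a CpG island had 0.204 and 0.214 in RT112, against 0.175 and 0.157 in UM-UC-3. The 17 members with a CpG island had 2 start sites with a peak in RT112 replicate 1 and 0 in the other libraries, which is too few for a ratio. Over all 382 members the ratio was 0.781 ± 0.161 in RT112, against 1.23 ± 0.0724 in UM-UC-3 (SD, n = 2 each). The difference of 0.448 gave p = 0.333 in the exact permutation test (two-sided), the smallest that this design allows.

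**Figure D3:**
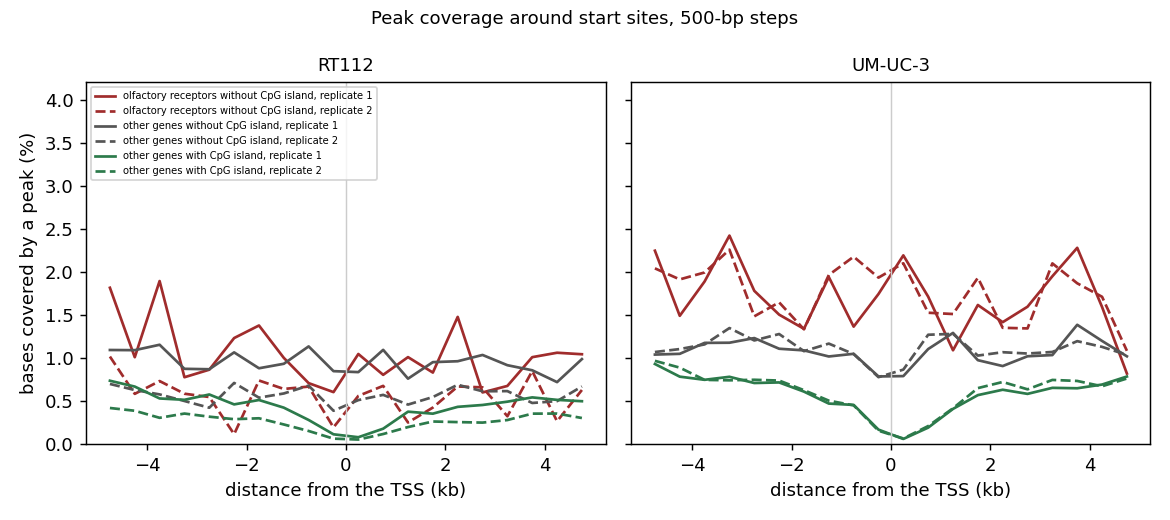
Bases covered by a PAI-1 peak (%, vertical axis) against distance from the TSS (kb) in 500-bp steps, for RT112 (left) and UM-UC-3 (right); solid and dashed lines are replicates 1 and 2. In UM-UC-3 the olfactory receptor lines (without a CpG island) lie above other genes without one at the TSS and at most other steps. Genes with a CpG island fall toward 0 at the TSS in both cell lines.

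These ratios rest on few genes. A peak lay within 500 bp of the start site at 14 and 9 of the 382 members in RT112 (3.67% and 2.36%) and at 24 and 27 in UM-UC-3 (6.28% and 7.07%). For other genes without a CpG island the shares were 3.71% and 2.099% in RT112, near those of the members, and 3.60% and 3.73% in UM-UC-3. For other genes with one they were 0.463%, 0.292%, 0.655% and 0.669% in the order of the libraries. Both RT112 replicates had one at 5 members, OR4D1, OR5L2, OR10A7, OR6C4 and OR9A2. OR10A7 scored 6.15 and 6.56 there, and OR9A2 6.15 and 7.90, in each case inside the coding exon. Both UM-UC-3 replicates had one at 21 members. OR11H6 (18.2 and 12.9), OR51Q1 (14.6 in each), OR4S1 (7.38 and 16.1), OR2D3 (11.3 and 11.2), OR11H7 (8.09 and 8.05) and OR9Q1 (6.61 and 9.60) led these by the best score of each gene. The others were OR8I2, OR5A1, OR6K2, OR10A6, OR4X1, OR7E24, OR6C68, OR8K1, OR9G1, OR2F2, OR52I1, OR51E1, OR10Z1, OR5B17 and OR5AC1. OR52I1 has a near copy and is uncertain. No start site carried a peak in both replicates of both lines. Counts over both replicates were not taken for other genes. With so few start sites in each line, they show nothing particular to receptors.

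Many member genes have their TSS close to the coding exon, and peaks covered more of that exon than of the sequence beside it. Peaks covered 1.48% and 0.792% of coding bases in RT112, against 2.26% and 1.77% in UM-UC-3. The 3-kb flanks had 0.977%, 0.519%, 1.46% and 1.49% in the same order. The coding-over-flank ratio was 1.52 and 1.53 in RT112, against 1.54 and 1.19 in UM-UC-3. It was above 1 in all 4 libraries, while the ratio at the TSS was above 1 in UM-UC-3 alone. The peaks on coding bases lay in 20 and 13 genes in RT112 and in 29 and 25 in UM-UC-3. By class the ratio was uneven. In class I it was 2.36 and 0 in RT112, against 3.19 and 1.43 in UM-UC-3, from at most 8 genes per library. In class II it was 1.46 and 1.58 in RT112, against 1.26 and 1.12 in UM-UC-3. The ratio was not taken for other genes, and base composition was not matched.

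Promoters of the members, taken from 250 bp before to 50 bp after the TSS, were searched on both strands for TAATTA, the homeodomain core that LHX2 recognises, and for the core of the EBF site. LHX2 and EBF1 are the factors that bind together at receptor enhancers in olfactory neurons. TAATTA was present in 82 of 382 member promoters (21.5%), against 3.87% of all promoters and 7.60% of those of other genes without a CpG island. The word holds only A and T, GC content was lower at the members, and neither comparison was matched on it. The EBF core was present in 6 (1.57%), against 1.37% of all promoters. Among members with a peak at the start site, TAATTA was present in 4 of 14 and 2 of 9 in the RT112 replicates and in 3 of 24 and 4 of 27 in the UM-UC-3 replicates. A match is a description of the letters, and binding of either factor was not measured here.

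Short repeats were rare within member peaks. GAGAGAGA on either strand was present in 5 and 7 member peaks in RT112 (3.38% and 8.64%) and in 10 and 12 in UM-UC-3 (4.29% and 5.08%). Over all peaks the shares were 5.57%, 5.56%, 4.35% and 4.40% in the same order. TGTGTGTG was present in 2.03% to 3.00% of member peaks, against 4.43% to 5.39% of all peaks. TATATATA was present in 1.23% to 2.70% of member peaks (1 to 4 peaks per library), against 0.777% to 1.41% of all peaks. GGAAGGAA was present in 2.70% to 4.29% of member peaks, against 3.21% to 3.97% of all peaks. Median GC content of member peaks was 39.8% and 38.4% in RT112, against 37.6% and 38.2% in UM-UC-3. All peaks had 42.2%, 42.6%, 40.2% and 40.2%.

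Runs of members with gaps of at most 500 kb formed 33 clusters, which held 371 members in 15.3 Mb. Of these, 12 clusters had at least 10 members and held 280 genes. Clusters held 32.2 and 21.0 peaks per Mb in the RT112 replicates, and the same chromosomes outside them held 34.0 and 21.3. In UM-UC-3 clusters held 48.4 and 50.2 peaks per Mb, and outside there were 40.7 and 42.1. The ratio of inside to outside was 0.948 and 0.987 in RT112 (0.967 ± 0.0270, SD, n = 2) and 1.188 and 1.191 in UM-UC-3 (1.19 ± 0.00226, SD, n = 2). The difference of 0.222 gave p = 0.333 in the exact permutation test (two-sided), the smallest possible here. The side of 1 on which RT112 fell changed with how clusters were taken, and all RT112 values lay near 1.

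The densest of these 12 in both lines was the 14-gene cluster from OR1J1 to OR1K1 (chr9:125236237-125566352), which includes OR1B1 and OR1L6. Its 0.330 Mb held 17 and 13 peaks in RT112 (51.5 and 39.4 per Mb) and 30 and 33 in UM-UC-3 (95.4 ± 6.43 per Mb, SD, n = 2). Relative to the rest of chromosome 9 this was 1.65 and 2.13 in RT112, against 2.43 and 2.59 in UM-UC-3. All 4 libraries were thus above their chromosome. The sequence within 1 Mb on both sides held 29.0 ± 9.90 peaks per Mb in RT112, against 41.5 ± 2.12 in UM-UC-3 (SD, n = 2 each), below the cluster in each library. Some smaller clusters were denser in a line. OR2AG2 to OR2D3 (8 genes) held 117.0 peaks per Mb in each UM-UC-3 replicate, against 30.8 and 0 in RT112. OR4D1 to OR4D2 (2 genes) held 103.3 and 68.9 in RT112, against 34.4 and 68.9 in UM-UC-3. It spans only 0.029 Mb, so these densities are 3 and 2 peaks in RT112, against 1 and 2 in UM-UC-3. OR4M2 to OR4N4 (2 genes, 0.032 Mb) held 3 peaks in each RT112 replicate (94.9 per Mb), against 2 and 1 in UM-UC-3.

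By the mean of both replicates, next in UM-UC-3 came the chromosome 12 cluster from OR9K2 to OR10P1 (15 genes), with 77.3 and 73.4 peaks per Mb, and the chromosome 17 cluster from OR1D5 to OR1E2 (11 genes), with 68.9 and 58.3. In RT112 they held 36.7 and 32.9, and 42.4 and 29.2. The former includes OR6C6, OR6C75 and OR10A7, and the latter OR1A1, OR1D2 and OR3A2. Both stood above their chromosome in all 4 libraries, by ratios of 1.06 to 1.68 and 1.38 to 1.78. In RT112 the chromosome 14 cluster from OR11H2 to OR6S1 (20 genes) held 43.9 and 27.8 peaks per Mb. Its mean of 35.8 was level with that of the OR1D5 to OR1E2 cluster, and in replicate 2 several clusters were denser. It held 34.2 and 43.9 in UM-UC-3.

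The 22-gene cluster from OR6X1 to OR8A1 (chr11:123621288-124455838) ran the other way. It held 49.1 and 32.4 peaks per Mb in RT112, second in that line by the mean, and 27.6 and 26.4 in UM-UC-3. Relative to chromosome 11 the ratios were 1.396 and 1.45 in RT112, against 0.65 and 0.61 in UM-UC-3. Of its genes, 9 and 6 had a peak in RT112 and 6 in each UM-UC-3 replicate. OR8D4 (10.1 and 4.09 in RT112, 3.88 and 8.05 in UM-UC-3) and OR10G4 lie in it.

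**Figure D4:**
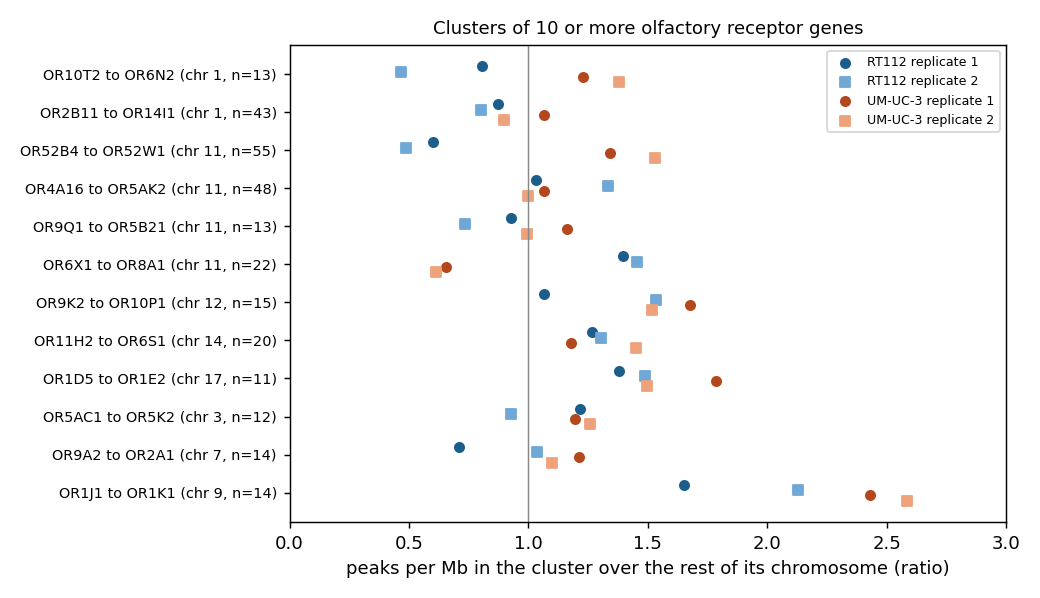
Peaks per Mb in each cluster of 10 or more olfactory receptor genes divided by the rest of its chromosome (horizontal axis), with 1 point per library and a line at 1. The OR1J1 to OR1K1 cluster lies above 1 in all 4 libraries (1.65 to 2.59), OR52B4 to OR52W1 lies below 1 in RT112 and above 1 in UM-UC-3, and OR6X1 to OR8A1 has the opposite order.

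The class I cluster from OR52B4 to OR52W1 (chr11:4385493-6224416, 55 genes) held 21.2 and 10.9 peaks per Mb in RT112, against 56.6 and 65.8 in UM-UC-3. Relative to the rest of chromosome 11 this was 0.60 and 0.49 in RT112, against 1.34 and 1.53 in UM-UC-3. A contrast was also found beside the cluster. The sequence within 1 Mb on both sides held 21.0 and 13.0 peaks per Mb in RT112, against 62.5 and 65.5 in UM-UC-3. UM-UC-3 thus had 3.81 times the RT112 density in the cluster and 3.76 times beside it. That sequence includes the smaller receptor cluster from OR2AG2 to OR2D3 (8 genes). Without it, a choice made after seeing the data, the sides held 20.1 and 14.1 peaks per Mb in RT112, against 57.7 and 60.9 in UM-UC-3, a ratio of 3.46. The input libraries were not analysed here, so no density was adjusted for the number of copies of a region in each line. Without this cluster, a choice made after seeing the data, the cluster ratio was 1.03 in RT112, against 1.15 in UM-UC-3, and the difference between the lines fell from 0.222 to 0.123. The difference in the share of members with a peak was then 14.7 points.

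In 250-kb steps the UM-UC-3 count rose at one side of the cluster before its first gene. The step that begins 2250 kb before the centre of the cluster held 3 and 2 UM-UC-3 peaks, and the next held 12 and 10. RT112 had 1 and 0 in the former and 0 and 1 in the latter. From there through the cluster UM-UC-3 had 10 to 23 peaks per step and RT112 0 to 12. This rise thus lay outside the class I cluster. It also began from a local low, since the steps from 3750 to 3000 kb before the centre held 6 to 8 UM-UC-3 peaks. From 1000 to 5000 kb after the centre the steps held 7 to 20, so no edge was seen on that side.

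**Figure D5:**
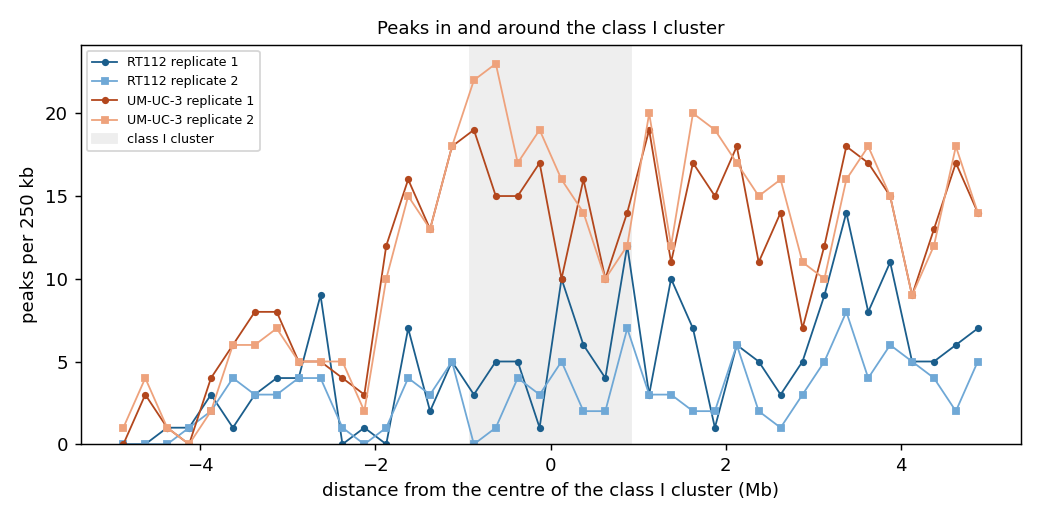
Peaks per 250 kb (vertical axis) against distance from the centre of the class I cluster (Mb), 1 line per library; the grey band is the cluster. UM-UC-3 counts rise from 2 to 3 peaks to 10 to 12 peaks about 2 Mb before the centre and lie between 7 and 23 from there on, while RT112 counts are mostly lower.

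The other clusters of 10 or more genes fell on both sides of their chromosomes. The 43-gene cluster from OR2B11 to OR14I1 at the end of chromosome 1 had ratios of 0.87, 0.80, 1.07 and 0.90 in the order of the libraries. The 48-gene cluster from OR4A16 to OR5AK2 on chromosome 11 had 1.03 and 1.33 in RT112, against 1.06 and 0.999 in UM-UC-3. The 13-gene cluster from OR10T2 to OR6N2 on chromosome 1 had 0.81 and 0.47 in RT112, against 1.23 and 1.38 in UM-UC-3. The clusters from OR9Q1 to OR5B21, from OR5AC1 to OR5K2 and from OR9A2 to OR2A1 ranged from 0.71 to 1.26 over the libraries. The 11 members in no cluster had a peak in 4, 1, 3 and 4 cases.

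Among 37 other chemosensory receptor genes (taste, trace amine and vomeronasal receptors), 10 and 9 had a peak in RT112, against 17 and 14 in UM-UC-3. These shares, 27.0%, 24.3%, 45.9% and 37.8%, stood 8.93, 9.44, 21.8 and 11.9 points above genes of their length. The bitter taste receptors (TAS2R) alone had 8, 6, 13 and 11 of 24. The trace amine receptors (TAAR) had 1 of 6 in every library, which differed from genes of their length by −6.51 and −8.26 points in UM-UC-3. The vomeronasal receptors (VN1R) had 0, 1, 2 and 1 of 4. Like olfactory receptors, bitter taste receptors are short genes, often in clusters, with a single coding exon.

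Genes of olfactory signal transduction and of receptor choice had a peak more often than the receptors did, and they are far longer (median 76.5 kb, against 1.64 kb). Of 20 such genes, 14 and 13 had a peak in RT112 (70.0% and 65.0%), against 13 and 14 in UM-UC-3 (65.0% and 70.0%). Over all genes the shares were 54.3%, 44.9%, 59.4% and 60.2% in the order of the libraries. Against genes of their length the 20 genes differed by 8.47 and 9.99 points in RT112 and by −0.48 and 3.99 points in UM-UC-3. Peaks in all 4 libraries were found at GNAL, the olfactory G protein alpha subunit, its exchange factor RIC8B, the beta subunit GNB1, the cyclic nucleotide-gated channel subunit CNGB1, the chloride channel ANO2, the exchanger SLC24A4, the phosphodiesterase PDE1C, the receptor transporters RTP1 and REEP1, and the transcription factor EBF1. PDE1C (677.0 kb) had 41, 19, 35 and 37 peaks, and ANO2 (414.4 kb) had 34, 28, 29 and 36. No peak was found in any library at OMP, the marker of mature olfactory neurons, at GNG13, the gamma subunit, or at the transcription factors ATF5 and EMX2. All 4 are short, from 0.492 kb to 7.10 kb.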

How the data were processed

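PAI-1 ChIP-seq was made on RT112 and UM-UC-3, with 2 ChIP libraries and 1 input per line; the inputs were not analysed here. Per the labels and the study's methods, read pairs were aligned by the authors to hg19 (Bowtie 1.1.1, default settings), with duplicates removed by Picard and peaks called by MACS2 2.1.0.20140616. The score column deposited by the authors was read as −log10 of the peak's p-value (or q-value); which of these and the use of the input are not given in the sources used here. The study's legends name a false discovery rate limit for the peaks counted per chromosome, and do not say whether it was applied to the deposited lists. Read depth is unknown, and no counting interval is given.

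Peaks listed more than once at the same position were counted once. Genes came from GENCODE release 44 on GRCh37, and coordinates are counted from 1. A CpG island was a 200-bp window within 500 bp of the TSS with GC of at least 50% and an observed over expected CpG ratio of at least 0.6. Length matching weighted the other genes to the length classes of the members, or to 10 length by 10 GC classes. GC content was taken over the gene with 3 kb on both sides. Coding sequences were compared with BLAST 2.17.0; other steps used Python 3.11.15, numpy 2.4.6, pandas 2.3.3 and pysam 0.24.0. The measures were tested on simulated data. Lines were compared by the exact permutation test over libraries.

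The members and lists were chosen with earlier results of these data known. Named genes were members with a peak in all 4 libraries, members with a start-site peak in both replicates of a line, the 10 with the highest mean score per line, members on the study's lists, and receptors with known ligands or expression outside the nose. The rule limited each of the first 2 sets to the 20 with the highest mean score; all 23 and all 21 (UM-UC-3) are named, those beyond 20 after their values were seen. Clusters of 10 or more members were named. Alternatives changed the window, score limit, matching, flanks, cluster gap and libraries. The replicates are labelled as biological, and nothing ties a number in one line to the same number in the other.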

Additional observations from a re-analysis of the deposited data

Results flagged for a closer look

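Some results were picked out because both libraries of one line lay on one side of 1 and both libraries of the other line on the opposite side. The start-site ratio of olfactory receptor genes was below 1 in both RT112 libraries and above 1 in both UM-UC-3 libraries, a difference of 0.448. The density ratio of receptor clusters was likewise below 1 in RT112 and above 1 in UM-UC-3, a difference of 0.222. Each gave p = 0.333 by the exact permutation test, the smallest that 2 against 2 libraries allow. The rule that picked them fixes this p in advance, so it adds no evidence.

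Single clusters had the same form, and their differences were not tested. Relative to its chromosome, the class I cluster from OR52B4 to OR52W1 was 0.89 higher in UM-UC-3 than in RT112, and the cluster from OR10T2 to OR6N2 was 0.67 higher. The cluster from OR6X1 to OR8A1 differed by −0.79, with RT112 above 1 and UM-UC-3 below it.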

How the results depend on the processing

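The gaps between the lines in the share of members with a peak, the start-site ratio and the cluster ratio kept their direction under every alternative run, and none could pass a threshold with 2 libraries against 2. Taking the replicate number as a replicate block left the differences at 17.7 points, 0.448 and 0.222, each with p = 0.5 in the exact sign-flip test, the smallest that 2 pairs allow; nothing shows that the numbers pair the libraries. Leaving out each library in turn gave 11.4 to 24.0 points, 0.334 to 0.561 and 0.203 to 0.241, and without RT112 replicate 1 the RT112 excess over length-matched genes was 3.65 points.

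In UM-UC-3 the excess over length-matched genes stayed above 0. It was 11.8 points with no window around the gene, 22.0 with 10 kb, 9.40 with the top 25% of scores, 15.9 with peaks found in both replicates, 13.5 with scores of at least 5, 8.49 with GC content matched, 10.9 against genes without a CpG island, 15.7 without the largest cluster and 18.5 without near copies. The UM-UC-3 start-site ratio was 1.14 within 1 kb of the TSS, 1.105 with flanks of 2 to 5 kb, 1.87 with the top 25% of scores, 1.77 at the start of the coding sequence, 1.32 without CpG islands and 1.46 with equal numbers of peaks. The RT112 start-site ratio ranged from 0.638 to 0.901. It was 0.782 ± 0.433 with the top 25% of scores and 0.901 ± 0.225 at the start of the coding sequence (SD, n = 2 each), so RT112 was not clearly below 1 there.

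The UM-UC-3 cluster ratio was 1.25 with gaps of 100 kb, 1.17 with 1 Mb, 1.21 with the top 25% of scores, 1.21 with clusters of 10 or more members, 1.21 by bases covered, 1.15 without the largest cluster and 1.25 against 1 Mb on both sides. The RT112 cluster ratio was 0.91 with gaps of 1 Mb, and it moved to the other side of 1 with the top 25% of scores (1.03), with clusters of 10 or more members (1.01), without the largest cluster (1.03) and against 1 Mb on both sides (1.103); the cause was not tested. Equal numbers of peaks, leaving out the largest cluster or near copies, and the 1 Mb comparison were chosen after seeing the data. Depth is unknown, and it limits all counts of peaks.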
